A study of Mus musculus with 2 samples.

Results

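POU3F1 sites at an intermediate distance from genes, more than 5000 bp and up to 50000 bp from the transcription start site (TSS) of an assigned gene, were taken from the authors' deposited gene table, which pairs genes with peaks and gives the signed distance of each pair. Of 4427 gene-peak pairs, 658 (14.9%) lay in this range, and they named 555 of the 2323 gene names in the table. Each distance was set on a peak interval through the mm10 TSS of the gene and the peak midpoint. This placed 625 pairs (95.0%) of 530 genes on 548 of the 2652 peaks. The other 33 pairs were not placed: 8 belonged to Erdr1, and the names of 10 genes matched no annotated gene. The rest belonged to genes that did match by symbol but whose pair had no accepted placement. A TSS found from 1 distance alone was accepted only at most 10 kb from an annotated start.

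CUT&RUN locates a protein on DNA by tethering a nuclease to it through an antibody and sequencing the fragments set free. The material was retina of CD1 mice (wild-type) at embryonic day 14, with 1 library for an antibody against POU3F1 and 1 library for rabbit IgG, an antibody without a target in these cells. The deposited peak list is that of the POU3F1 library and IgG signal was not used here, which left neither a replicate check nor a test between antibodies. Whether embryos were pooled, and how many were used, is not given in the sources used here, and the retina was profiled whole, so the cell type behind a peak is unknown.

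POU3F1 (also called OCT6 or SCIP) is a transcription factor of the POU family, whose bipartite DNA-binding domain pairs a POU-specific domain with a homeodomain and recognises the octamer ATGCAAAT. The factor is known from Schwann cells and from developing neurons, and in the retina from ganglion cells whose axons cross to the opposite side of the brain. Enhancers, the sequences that raise transcription from a distance, often lie upstream of a gene, in its introns or past its end, and a peak at such a distance does not by itself say which gene it serves.

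Sequence could be read only where a peak overlapped a RefSeq promoter window of GRCm38.p6, the mm10 assembly. Such a window runs from 250 bases before to 50 bases after an annotated start. This held for 14 of the 548 peaks, which met 17 windows. These peaks lie at a start that is not the one their distance was counted from, either of another transcript of the same gene or of a neighbour. The octamer ATGCAAAT, searched on both strands and so also as ATTTGCAT, stood in the window of 3 of the 14 peaks (21.4%, 95% exact binomial interval 4.66 to 50.8%). Counted by windows, it was in 3 of the 17, against 570 of all 32851 windows (1.74%). The 3 windows with an octamer are printed below, followed by the window of Spag9, which has none and whose peak summit lay 11 bases before the start. All run 5′ to 3′ and end at the last base before the start, with the octamer in capitals. H2bc6 (chr13:23585971-23586090, minus strand) and H2bc14 (chr13:21721924-21722043, plus strand) encode histone H2B proteins, Gm42808 (chr5:140549709-140549958, minus strand) is a long non-coding RNA gene, and Spag9 (chr11:94044010-94044129, plus strand) encodes a scaffold protein of kinase signalling.
H2bc6: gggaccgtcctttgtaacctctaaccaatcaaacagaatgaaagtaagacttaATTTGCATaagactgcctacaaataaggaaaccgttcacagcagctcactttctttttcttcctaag
H2bc14: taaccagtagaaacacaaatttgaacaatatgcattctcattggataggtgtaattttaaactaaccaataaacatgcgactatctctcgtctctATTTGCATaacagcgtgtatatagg
Gm42808: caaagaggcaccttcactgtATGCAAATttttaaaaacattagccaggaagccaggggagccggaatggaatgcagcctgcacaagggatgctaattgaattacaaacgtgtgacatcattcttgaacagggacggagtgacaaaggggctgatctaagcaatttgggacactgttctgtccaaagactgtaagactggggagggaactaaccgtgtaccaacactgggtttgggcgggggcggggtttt
Spag9: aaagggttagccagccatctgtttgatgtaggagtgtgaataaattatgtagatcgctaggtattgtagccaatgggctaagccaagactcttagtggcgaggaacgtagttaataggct

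The octamer of H2bc6 covered bases 67 to 60 before the start. The summit of a 26.8-fold peak lay at base 23585998, just before the start at base 23585970 on this minus strand. The deposited table names this gene Hist1h2be and counts the peak as 35103 bp downstream, because the distance was taken from a start at the far end of a 37455 bp gene body. At H2bc14 the octamer covered bases 25 to 18 before the start and the summit lay 39 bases before it, with a fold of 3.18 and a summit pileup of 48 fragments. The table gives that peak as 12992 bp upstream of Hist1h4j. The octamer of Gm42808 lay at bases 230 to 223 before the start, which is base 140549708. The summit of its 8.84-fold peak lay at base 140549866, also before the start on this minus strand. This peak was assigned to Grifin (15148 bp) and Chst12 (44373 bp), both downstream of their TSS. A 7-letter part of the octamer, ATGCAAA or TGCAAAT, was in the windows of 4 of the 14 peaks, counting those with the full octamer. By windows this was 5 of 17, against 6.82% of all windows. A window can reach beyond its peak, so a match in it need not lie in the peak. The octamers of H2bc6, H2bc14 and Gm42808 did lie within their peaks. The remaining 7-letter match, in the windows of the long non-coding RNA gene Gm34978, lay outside its peak. None of ATGCATAA, ATGAATAA and ATGAATTA was in the windows of the 14 peaks, against 2.40% of all windows. These letters say nothing of the other peaks, whose sequence was not read.

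Peaks in this distance range had folds and depths close to those of peaks further out. Their median fold over the local background at the summit was 6.39 (quartiles 4.91 and 8.84), their median summit pileup was 18 fragments (12 and 31) and their median length 340 bp. Of the 548 peaks, 107 (19.5%, 16.3 to 23.1%) reached 10-fold and 26 reached 20-fold. Peaks whose nearest assigned TSS was within 5 kb had a median fold of 6.84 and a median pileup of 24 fragments, and 25.4% of them (20.5 to 30.8%) reached 10-fold. A peak of 20-fold or more was found in 29 of those 291 (9.97%, 6.78 to 14%), against 24 of the 533 peaks whose nearest assigned TSS was at 5 to 50 kb (4.50%, 2.91 to 6.63%), and these intervals do not overlap. At 50 to 500 kb the median fold was 6.37, the median pileup 18 fragments and the share at 10-fold 17.4% (15.5 to 19.4%). At 10-fold the intervals of neighbouring classes overlapped. Depth limits single peaks: 284 of the 548 (51.8%) rested on fewer than 20 fragments at the summit, and intervals here and below cover counting error only.

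Similar numbers of pairs lay inside the gene and upstream of it. Upstream of the TSS lay 244 of 625 pairs (39.0%, 35.2 to 43.0%) from 216 genes, and inside the gene body lay 255 (40.8%, 36.9 to 44.8%) from 214 genes. Past the far end of the gene lay 126 pairs (20.2%, 17.1 to 23.5%). The positions had close peak strengths: median folds were 6.39 upstream, 6.22 inside and 6.39 past the end, and 19.7%, 18.4% and 20.6% of pairs reached 10-fold. Of the upstream pairs, 16 lay inside a longer annotated form of the same gene, since the table counts from 1 TSS a gene. In 56 upstream pairs (23.0%) and in 42 past the end (33.3%) the peak midpoint was in the body of another protein-coding gene. In all, 337 of the 548 midpoints (61.5%) were in a protein-coding gene, 45 in a long non-coding RNA gene and 161 in no annotated gene.

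**Figure D1:**
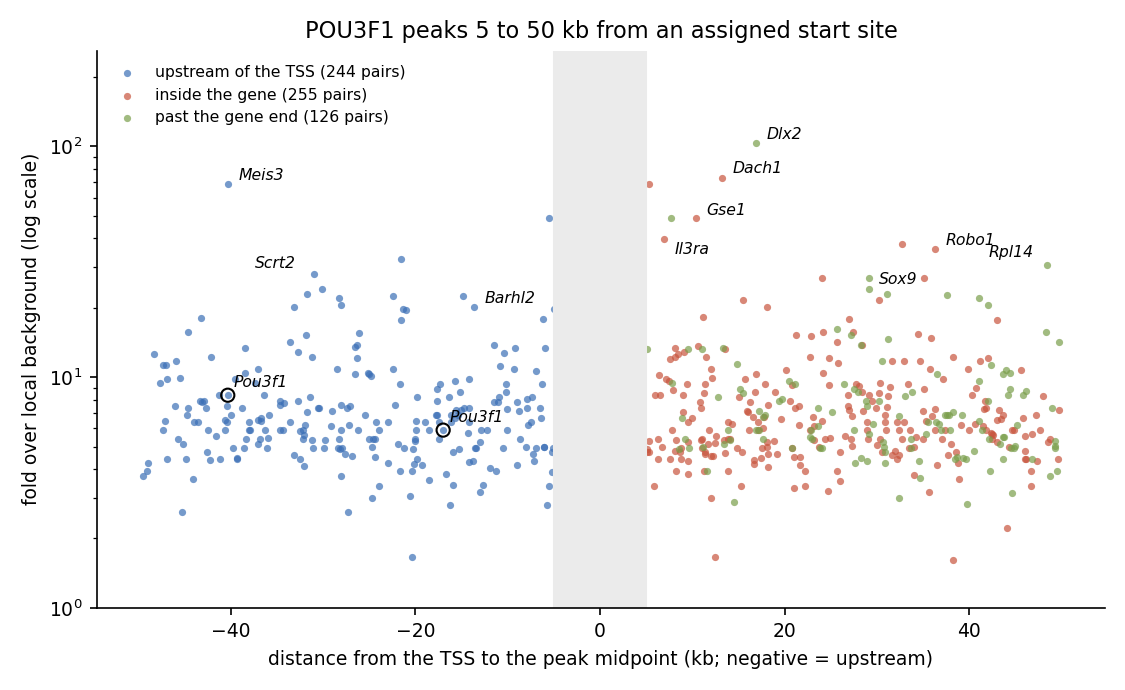
Fold over local background of each of the 625 placed pairs (log axis) against the distance of the peak midpoint from the TSS in kb, coloured by position; the grey band is the excluded range within 5 kb, and circles mark Pou3f1. Strong and weak peaks stand at all distances and in all 3 positions, with Dlx2, Dach1 and Meis3 highest.

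Set against the sequence available, pairs were denser inside genes than upstream or past the end. The search domains of the gene table (5000 bp upstream and 1000 bp downstream of the TSS, extended up to the neighbouring domains) were rebuilt for 17927 protein-coding genes, and 563 of the 625 pairs (90.1%) fell into the rebuilt domain of their gene. Of the sequence that these domains offered at 5 to 50 kb, 30.0% was inside the gene, while 43.0% of pairs were (38.9 to 47.2%). The rate was 0.887 pairs per Mb inside genes (0.778 to 1.01), 0.530 upstream (0.464 to 0.604) and 0.448 past the gene end (0.362 to 0.548). Inside over upstream the ratio of rates was 1.67 (1.39 to 2.01), and inside over past the end it was 1.98 (1.55 to 2.54). Upstream over past the end it was 1.18 (0.927 to 1.52), an interval that includes equal rates. The same ratio of inside over upstream was 1.57 (1.41 to 1.75) at 50 to 500 kb and 0.816 (0.565 to 1.17) at 1 to 5 kb.

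Over all domains the rate at 5 to 50 kb was below those at 1 to 5 kb and at 50 to 500 kb. It was 0.618 pairs per Mb at 5 to 50 kb (0.568 to 0.671), against 1.11 at 1 to 5 kb (0.934 to 1.3) and 1.19 at 50 to 500 kb (1.14 to 1.23). In steps of 5 kb it was between 0.496 (5 to 10 kb) and 0.760 (35 to 40 kb). Distances are not offered by the same genes, since only genes with distant neighbours have domains that reach far. On the 8502 gene sides whose domain reached at least 100 kb, the rate at 5 to 50 kb was 0.915, against 1.05 at 50 to 100 kb, a ratio of 0.868 (0.753 to 1.0) whose interval reaches equal rates, where all domains together gave 0.650. On those same sides the rate at 1 to 5 kb was 1.53, and the ratio to it was 0.598 (0.446 to 0.817).

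**Figure D2:**
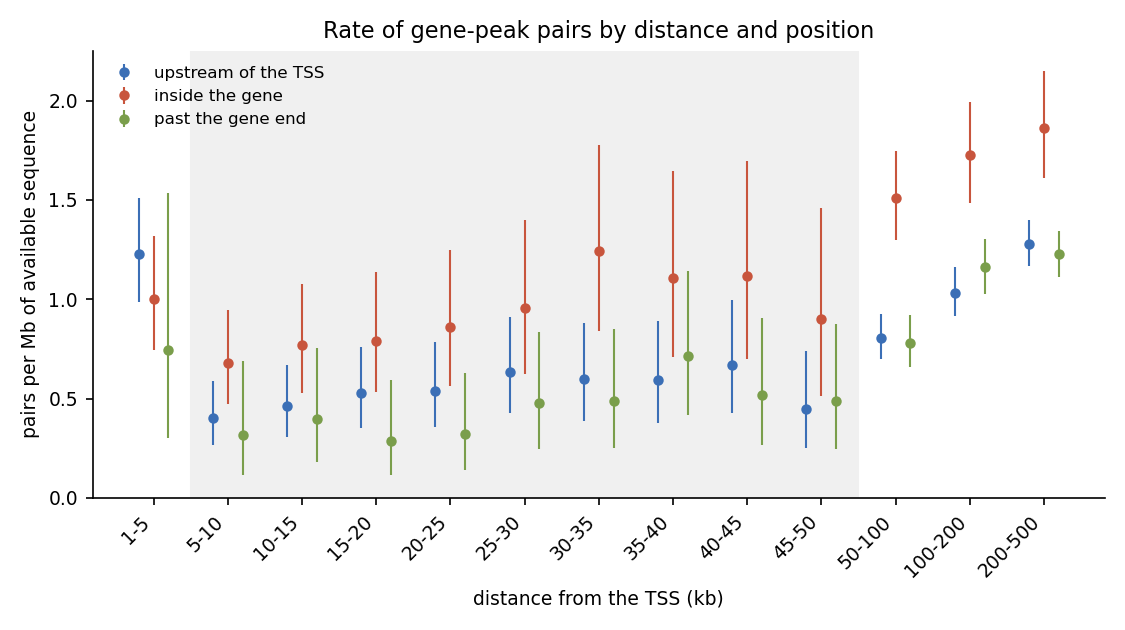
Gene-peak pairs per Mb of available sequence (y) by distance from the TSS in kb (x), upstream of the TSS, inside the gene and past its end; points are rates and bars exact 95% Poisson intervals, and the shaded bins make up 5 to 50 kb. In every shaded bin the rate inside genes is the highest of the 3, although the bars of single bins overlap.

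The difference between inside and upstream went with the length of the gene. Inside genes of 5 to 25 kb the rate was 0.215 pairs per Mb (0.0982 to 0.408), inside genes of 25 to 50 kb 0.475, of 50 to 100 kb 0.810, of 100 to 250 kb 1.31, and inside genes over 250 kb 2.42 (1.86 to 3.09). Upstream of the same genes the rates were 0.514, 0.667, 0.393, 0.785 and 0.646, without such an order. The ratio of inside over upstream was therefore 0.418 (0.183 to 0.838) in the shortest class and 3.74 (2.13 to 6.94) in the longest. Genes over 100 kb held 136 of the 242 inside pairs in the rebuilt domains (56.2%), but 29.9% of the sequence available inside genes at this distance. The 214 genes with an inside pair, each counted once, had a median length of 114626 bp, against 25809 bp for all protein-coding genes longer than 5 kb.

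**Figure D3:**
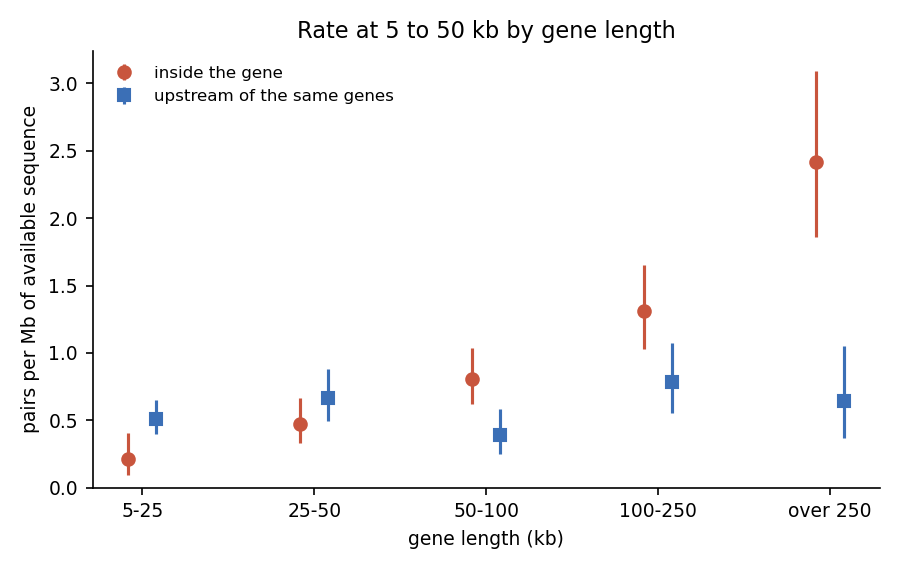
Pairs per Mb of available sequence at 5 to 50 kb (y) by class of gene length in kb (x), inside the gene (circles) and upstream of the same genes (squares), with exact 95% Poisson intervals. The circles climb from 0.215 to 2.42 while the squares stay between 0.393 and 0.785.

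The strongest pairs joined transcription factor genes with genes of other kinds. The highest fold in the range, 103.6 with a summit pileup of 210 fragments, was at chr2:71529465-71530259. It is counted here as 16892 bp downstream of Dlx2 and past its end, but it lies inside the neighbouring Dlx1, 1749 bp from that TSS; both encode homeodomain factors of retinal and forebrain neurons. Next was a peak of 73.4-fold (161 fragments) at chr14:98155605-98156970, 13256 bp into the 382920 bp gene Dach1, a transcriptional cofactor of eye development. A peak of 68.8-fold (144 fragments) at chr7:16134756-16135597 lay 5350 bp into Slc8a2, a sodium-calcium exchanger gene of neurons, and 40254 bp upstream of Meis3, a homeodomain cofactor gene. Gse1 followed with 49.2-fold. A peak of 49.1-fold was shared between Stac3, an adaptor of muscle calcium channels (7682 bp downstream), and Ndufa4l2 (5568 bp upstream), a mitochondrial protein gene. The same peak spans the start of a longer annotated form of Ndufa4l2. Il3ra, the interleukin-3 receptor alpha chain, had a 2898 bp peak of 39.7-fold 6915 bp inside the gene. Robo1, a receptor for Slit guidance cues, had one of 36.0-fold (146 fragments) 36330 bp downstream of its TSS. The strongest pairs thus fell in all 3 positions, and the peaks at Dlx2, Meis3 and Stac3 each had a further assigned gene within 50 kb.

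Several genes carried more than 1 peak in the range. Of 530 genes, 458 had 1 pair, 57 had 2, 10 had 3, 2 had 4 and 3 had 5. Gse1, which encodes a protein of histone deacetylase complexes, had 5: 49.2, 37.8, 10.4 and 3.93-fold at 10431, 32707, 16847 and 25715 bp inside the gene, and 7.79-fold at 11445 bp upstream. Its upstream peak was inside a longer annotated form of Gse1. Lgr4, a receptor for R-spondins that amplify Wnt signals, had 5 pairs, all inside the gene from 18933 to 42568 bp, with folds from 5.43 to 11.5. Mid1, a ubiquitin ligase bound to microtubules, had 4 inside and 1 upstream, with folds from 4.76 to 8.51. Tle1, a Groucho-type corepressor gene, had 4 inside, with folds of 4.90, 4.65, 11.7 and 6.27 at 5121, 18243, 32919 and 40659 bp.

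**Figure D4:**
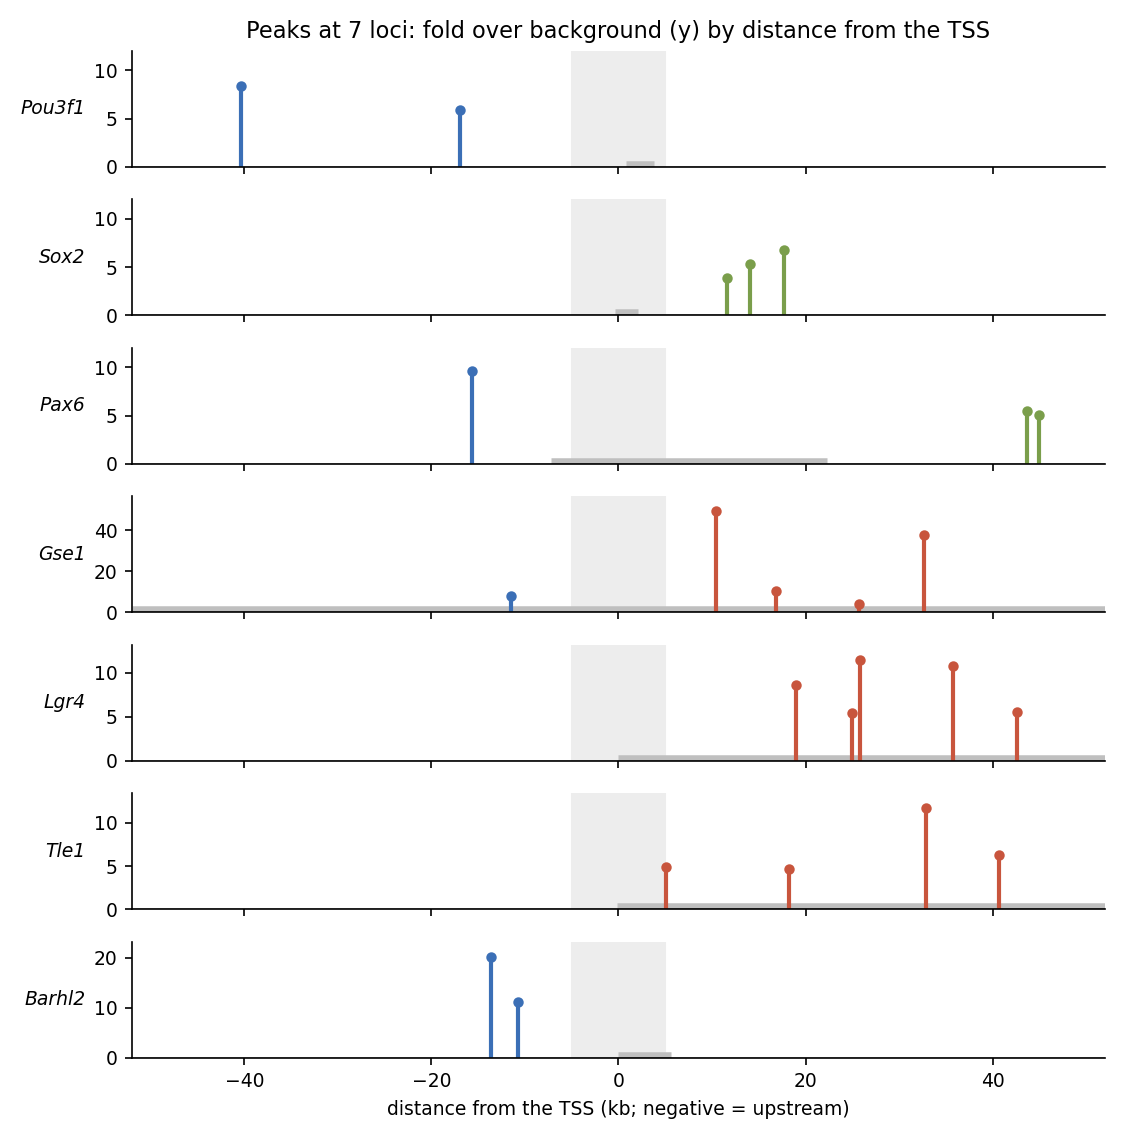
Peaks at 5 to 50 kb from the TSS of 7 genes: fold over local background (y) by distance from the TSS in kb (x), with blue for upstream, red for inside and green for past the gene end; the grey bar is the annotated gene body and the band the excluded range within 5 kb. Pou3f1 and Barhl2 have peaks only upstream in this range, Sox2 only past its end, and Lgr4 and Tle1 only inside.

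Genes were then read by lists, and a gene could be in more than 1 list. Of 21900 protein-coding genes, 520 had a pair at 5 to 50 kb, a background of 2.37%; for upstream, inside and past-end pairs taken singly it was 0.963%, 0.977% and 0.507%. Domains differ in size between lists, so the rate per Mb of available sequence, 0.618 over all genes, is given for the main lists, and the plot of the gene lists shows it for all 26. POU genes, the family of POU3F1 itself, had the highest share of 26 lists: 6 of 15 (40%, 16.3 to 67.7%), at 7.49 pairs per Mb (3.01 to 15.4). Pou3f1 (chr4:124657646-124660655) had its pair of peaks upstream, both within annotated long non-coding RNA genes, with 8.35-fold at 40327 bp and 5.89-fold at 16996 bp. They rested on 16 and 11 fragments. Pou2f1, the widely expressed octamer factor OCT1, had 14.7-fold (33 fragments) 35839 bp inside the gene. Pou1f1, known from the pituitary, had 10.3-fold (20 fragments) 25063 bp upstream, and Pou2f2, known from B cells, 6.47-fold (25 fragments) 47135 bp upstream, inside a longer annotated form of Pou2f2. That TSS was not the nearest assigned one to the peak, and by nearest TSS alone 5 POU genes had a pair. Pou4f1, a factor of retinal ganglion cells, had 4.86-fold (9 fragments) 8502 bp downstream and past its end. That peak overlapped the promoter window of the long non-coding RNA gene D130079A08Rik, with its summit 236 bases before the start of that gene.

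Retinal progenitor genes had 9 of 40 members with a pair (22.5%, 10.8 to 38.5%) at 6.49 pairs per Mb (3.71 to 10.5). Their 17 pairs were 8 upstream, 7 past the gene end and 2 inside. A 24.2-fold peak (50 fragments) lay 29111 bp downstream of Sox9, past the end of this gene of progenitors and Müller glia. Pax6, required for eye formation, had 9.62-fold (63 fragments) 15667 bp upstream and 5.49 and 5.04-fold at 43648 and 44990 bp downstream. Meis1, a homeodomain cofactor gene, gave both inside pairs of the list, with 8.83-fold (85 fragments) at 7899 bp and 7.10-fold (28 fragments) at 28491 bp. SOX genes had 3 of 20 with a pair, and all 5 pairs were past the end of these short genes: Sox9, Sox8 (6.68-fold, 8860 bp) and Sox2, with 3.91, 5.34 and 6.74-fold at 11624, 14097 and 17685 bp. Homeobox genes outside the POU family had 17 of 89 (19.1%, 11.5 to 28.8%), with 13 pairs upstream, 10 inside and 4 past the end and a median fold of 8.35, against 6.39 over all pairs of protein-coding genes. Nkx6-2 had 22.6-fold (45 fragments) 37631 bp downstream, where the peak lay inside its neighbour Inpp5a.

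Genes of retinal neurons were spread over the same positions. Of retinal ganglion cell genes, 8 of 54 had a pair (14.8%, 6.62 to 27.1%) and of amacrine and horizontal cell genes 6 of 29 (20.7%, 7.99 to 39.7%), at 2.82 and 5.68 pairs per Mb. Barhl2, a homeodomain factor of both, had 20.2-fold (76 fragments) at 13653 bp and 11.2-fold (43 fragments) at 10788 bp upstream. Ebf1, an early neuronal factor gene, had 10.8-fold at 39812 bp and 4.91-fold at 17543 bp inside. Atoh7, which makes progenitors competent to form ganglion cells, had 8.66-fold (21 fragments) 10148 bp upstream. Gad2, which makes the transmitter GABA in amacrine and horizontal cells, had 12.8-fold (170 fragments) at 32691 bp and 7.72-fold (86 fragments) at 34275 bp upstream, and both lay inside the neighbouring Myo3a. Of genes of contralateral ganglion cells, whose axons cross the midline, 4 of 14 had a pair (28.6%, 8.39 to 58.1%). Besides Pou3f1 and Pou4f1 these were Igfbpl1 (9.58-fold, 7451 bp inside) and the adhesion gene Nrcam (4.33-fold, 9489 bp inside). Of ipsilateral genes 1 of 18 had one (5.56%, 0.141 to 27.3%), Zic5, with 8.24-fold 12735 bp downstream. The intervals of these last lists overlap widely. Photoreceptor and bipolar genes had 3 of 26, among them Thrb (7.08-fold) and Rorb (6.39-fold), nuclear receptor genes of photoreceptors, both inside the gene.

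Wnt pathway, adhesion and axon guidance genes had their pairs mostly inside. Of Wnt pathway genes 6 of 58 had a pair (10.3%, 3.89 to 21.2%), and all 16 pairs were inside the gene, at 5.34 per Mb (3.05 to 8.67). Of these, 8 were in Tle1, Tle3 and Tle4, Groucho corepressors that act in several pathways, 5 in Lgr4, 2 in Dkk3, a secreted Dickkopf-family gene, and 1 in Tcf7l2, the transcription factor at the end of the pathway. Tle4 had 7.43-fold (79 fragments) and 6.40-fold (35 fragments) at 31097 and 32137 bp. Tle1 (91045 bp), Lgr4 (96611 bp) and Tle4 (150112 bp) run beyond 50 kb from their TSS. In such genes every downstream pair of the range is inside the gene. The inside share of the sequence available to each list is not given here. Neural adhesion genes had 9 of 74 (12.2%), with 9 of 11 pairs inside at 1.9 per Mb: Tenm2 with 15.1-fold, Dscam with 14.2 and 7.87-fold, and the latrophilin gene Adgrl2 with 12-fold led. These are long genes; Tenm2 spans 1230398 bp. Axon guidance genes had 6 of 81 (7.41%, 2.77 to 15.4%) at 1.45 per Mb (0.582 to 2.98). That rate interval includes the 0.618 of all genes. After Robo1 came Epha4, an ephrin receptor gene, with 20.1-fold (40 fragments) 18034 bp inside, Robo2 with 6.44-fold and the ephrin gene Efna5 with 5.35-fold. Notch pathway genes had 5 of 33 (15.2%): the feedback inhibitor Nrarp (13.3-fold, 5123 bp, past its end), the receptor Notch2 (9.33-fold, inside), the receptor-modifying enzyme Mfng (6.88-fold, past its end), the coactivator Maml3 (6.50-fold, inside) and the effector Hes5 (5.0-fold, 7974 bp upstream).

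The FGF, BMP and hedgehog lists and those of synapse and chromatin genes had shares whose intervals include the background of 2.37%. FGF genes had 2 of 38 (Etv5 with 13.7-fold, 10580 bp inside, and Spred1 with 3.73-fold, the latter not at a q-value under 0.01), BMP and TGF-beta genes 3 of 42 (Acvr1c, Bmp7 and Bmpr1b, from 4.23 to 5.40-fold) and hedgehog genes 1 of 17. That pair, in Smo, had a fold of 1.66 on 115 fragments. Of synapse and ion channel genes 3 of 70 had a pair (4.29%, 0.893 to 12%), led by Grm7 with 12-fold, and of chromatin regulators 1 of 52 (1.92%), Jarid2 with 7.85-fold. Neural basic helix-loop-helix genes had 4 of 34 (11.8%, 3.30 to 27.5%), above the background by share, at 1.43 pairs per Mb (0.295 to 4.19). Forkhead, nuclear factor I and TEA genes, together with the early B-cell factor genes, had 5 of 40 (12.5%, 4.19 to 26.8%) at 3.55 pairs per Mb (1.53 to 7), led by Foxb2 with 17.9-fold (109 fragments) 6190 bp upstream.

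Lists for other cells and for housekeeping were read in the same way. Of pigment epithelium and lens genes 3 of 31 had a pair (9.68%, 2.04 to 25.8%): the crystallin gene Crybb2 (13.8-fold) and the melanin enzyme genes Tyrp1 (11.8-fold) and Dct (10.8 and 8.35-fold), none of them inside the gene. Endothelial, blood and microglial genes had 1 of 30, Kdr with 3.54-fold, and astrocyte, Schwann and oligodendrocyte genes 2 of 24, Aldh1l1 (7.84-fold) and Olig2 (6.39-fold). Liver, muscle and skin genes had 0 of 34, which allows a share of up to 10.3%. Cell cycle genes had 3 of 42, led by E2f8 with 17.7-fold 21567 bp upstream. By nearest TSS alone this was 1 of 42, E2f8. Ribosomal protein genes had 6 of 78 (7.69%, 2.88 to 16.0%) at 3.32 pairs per Mb (1.08 to 7.76), and 5 of the 6 pairs were past the end of these short genes, at 25174 to 48443 bp, with Rpl14 (30.5-fold) and Rplp1 (20.6-fold) strongest. The interval of the ribosomal protein genes overlapped with those of the axon guidance, Wnt and adhesion lists.

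**Figure D5:**
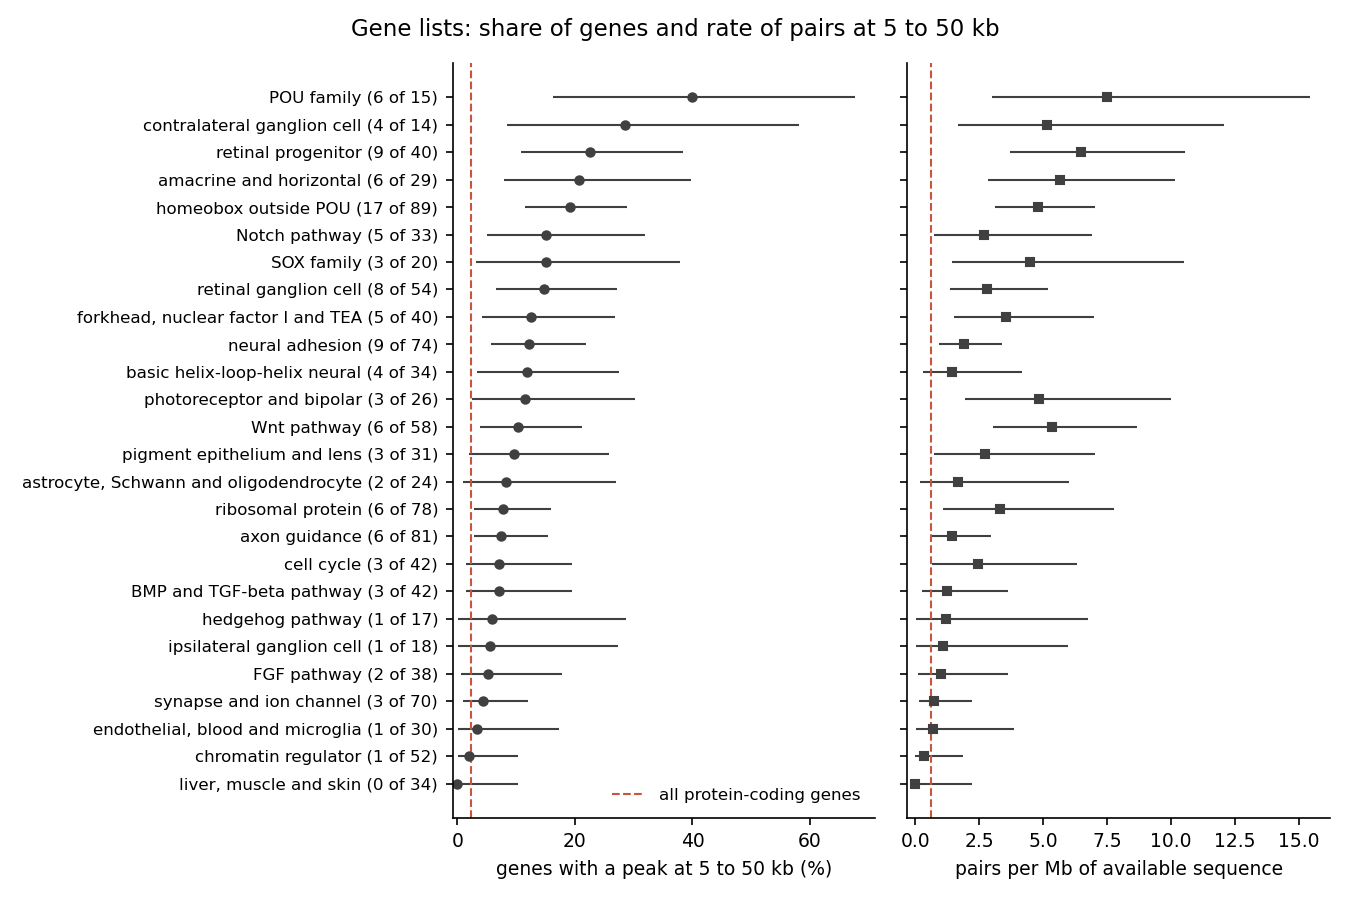
Share of genes with a peak 5 to 50 kb from the TSS (left, percent, with exact 95% binomial intervals) and pairs per Mb of available sequence (right, with exact 95% Poisson intervals) for 26 gene lists; the dashed line is the value of all protein-coding genes, 2.37% and 0.618 per Mb. POU, contralateral, progenitor, amacrine and horizontal and homeobox genes stand highest by share. These lists share genes: Pou3f1 and Pou4f1 are in the POU and contralateral lists, and Pax6 and Meis1 in the progenitor and homeobox lists.

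Most peaks in the range had no closer assigned gene. For 533 of the 548 (97.3%) a TSS that put the peak in the range was also the nearest assigned one, 471 had 1 pair in the range and 77 had 2. The peaks outside the 533 are the 15 with another assigned TSS within 5 kb. That case is restricted by the way domains are drawn, so the 97.3% largely follows from the assignment. The most frequent arrangement of 2 was past the end of 1 gene and upstream of the next, in 26 peaks. There were 15 peaks (2.74%, 1.54 to 4.47%) also within 5 kb of another assigned TSS, and 0 within 1 kb. All 15 lay downstream of that other TSS, from 1154 to 4423 bp. A domain extends only up to 5000 bp upstream or 1000 bp downstream of a neighbouring TSS. The assignment rule thus leaves little room for other cases, and the low share and the 0 largely follow from it. After Dlx2 and Hist1h2be the strongest of the 15 were shared by Dpy19l3 with Zfp507 (11.3-fold), by Ap5s1 with Cdc25b (8.18-fold) and by Vamp2 with Tmem107 (7.24-fold). Against all annotated starts, including other transcripts and non-coding genes, 65 (11.9%, 9.27 to 14.9%) were within 5 kb and 22 within 1 kb. A further peak of the list lay within 10 kb of 104 of the 548 (19.0%, 15.8 to 22.5%), against 30.2% (25 to 35.9%) of peaks within 5 kb of a TSS and 17.2% (15.3 to 19.2%) at 50 to 500 kb, so the counts above are not of fully independent sites.

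The pairs next to each limit of the range had folds from 4.74 to 19.8. Just inside 5 kb lay the peaks 5022 bp upstream of Lmo1 (19.8-fold, 100 fragments) and 5038 bp into Sltm (4.74-fold), and just outside those 4887 bp into Tcf7l2 (5.40-fold) and 4971 bp upstream of Cln6 (6.88-fold). The Lmo1 peak, 5022 bp from the counted TSS, overlapped the window of another annotated start of this LIM-domain cofactor gene. Just inside 50 kb lay 49680 bp into Mtss1 (7.20-fold) and 49709 bp downstream of Snx11 (14.2-fold), and just outside 50055 bp into Mapk10 (8.35-fold) and 50083 bp upstream of Ddx3x (17.7-fold).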

How the data were processed

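Reads were processed with Bowtie2, MACS2 and deepTools on mm10, per the submitters' processing notes, which give no versions. The authors deposited 1 peak list in the MACS2 narrow-peak layout, which holds, at each summit, the ratio of pileup to local background (fold), −log10 p-values and −log10 q-values, and a score that is 10 times the latter. These are the authors' own values for each peak and serve only to describe peaks within this list. Per the file headers, the gene table was made with GREAT 4.0.4 with curated domains. Whether IgG served as the control in peak calling is not given in the sources used here.

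Coordinates are mm10, counted from 1. Genes came from RefSeq tables of GRCm38.p6: 534 of the 555 genes matched by symbol, 11 by synonym. The TSS and strand of a gene were those that put the most of its distances on peak midpoints. Ties went to the start nearest to an annotated one. Starts were sought in the gene body and up to 10 kb beyond it. Where only 1 distance placed a gene, its start had to be at most 10 kb from an annotated one. Of the placed TSS of the 530 genes, 74.3% were within 100 bp of an annotated start (median 17 bp), and upstream or inside position depends on this TSS. Without strand in the tables, 3973 protein-coding genes only bounded the domains of others. Summit pileup was recovered for all 548 peaks as the whole number whose Poisson p-value matched the deposited one to 0.001 on the −log10 scale. The steps were tested on simulated data. Python 3.11.15, pandas 2.3.3 and SciPy 1.17.1 were used; shares carry exact binomial (Clopper-Pearson) and rates exact Poisson 95% intervals. Rate ratios carry exact conditional intervals.

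The range of distances, the 26 gene lists and the alternatives were chosen with earlier results of these data known. Genes were named by a rule: Pou3f1, the 10 pairs of highest fold, the 5 genes with most pairs, the 4 strongest genes of each list, the 2 pairs next to each limit and the 5 strongest peaks also near another TSS. Tle3 and the genes of the sequence windows were named after their values were seen, as were the peaks in the closing section. A gene that this rule selects is not reported here. No test was made, with 1 library.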

Additional observations from a re-analysis of the deposited data

How the results depend on the processing

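Of 45 alternatives to the main values chosen with the design, 37 left the value within its interval (counts within 1.5 times), and so did 50 of 52 counts for single gene lists. The exceptions were cell cycle genes, 3 against 1 by nearest TSS, and FGF genes, 2 against 1 at a q-value under 0.01. Some of the 45 could not move, so their tally overstates how firm the values are. Upstream is set by the sign of the distance. Other ways of judging overlap with the gene body thus could not change the number of pairs or the upstream share. No peak of the range was on chromosome Y, so leaving that chromosome out changed nothing. With each peak counted once through its nearest TSS, 46.5% of pairs were inside the gene and 15.8% past its end, and inside over available sequence was 1.61 in place of 1.43. For the 1.61 only the pairs were cut to the nearest TSS. The available sequence was not, so the 2 ratios are not fully comparable. From 5 to 25 kb, 289 pairs remained, 45.7% inside and 13.5% past the end. With only the sequence of genes that had a pair, that ratio was 1.18. No peak (0%) was within 1 kb of another assigned TSS, a value to which the assignment rule leaves little alternative. Among alternatives chosen after seeing the data, gene sides reaching 100 kb gave 0.868 for 5 to 50 kb over 50 to 100 kb, in place of 0.650. Inside over upstream was below 1 in genes of 5 to 25 kb (0.418) and was 2.06 at 50 to 100 kb and 3.74 over 250 kb. In genes of 25 to 50 kb it was 0.712 (0.447 to 1.12), an interval that includes equal rates. The causes of the other shifts were not tested. No paired analysis was possible because the study has 1 library for each antibody. Depth limits weak peaks: of the 548, 536 had a q-value under 0.01 and 510 under 0.001.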

Other observations

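Fold and depth parted at several peaks of the range. The deepest, 711 fragments at the summit, was assigned 16707 bp upstream of Limd1, lay inside the neighbouring Lars2, a mitochondrial tRNA-ligase gene, and had a fold of 3.82. A peak 26372 bp upstream of the collagen gene Col19a1 had 703 fragments, a length of 4582 bp and a fold of 12.1. The lowest fold of the range, 1.61, was 38286 bp into Filip1l, where the gene Cmss1 overlaps, with 192 fragments. These 3 peaks thus stood on a high local background, and IgG signal at them was not used here.

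The peak inside Epha4, an ephrin receptor gene of axon guidance, also covered most of the hairpin of the microRNA gene Mir6352 on the same strand. Among chromosomes with over 50 placed peaks, the share of peaks in the range was lowest on chromosome 10 (8.16%, 8 of 98) and chromosome 13 (10%, 17 of 170) and highest on chromosome 15 (32.9%, 23 of 70) and chromosome 4 (32.0%, 41 of 128). Over all placed peaks it was 21.9% (548 of 2504). These chromosomes were picked as the extremes, no intervals were computed, and differences between chromosomes were not tested.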
